A study of Mus musculus with 6 samples.

Results

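The ectonucleotide pyrophosphatase/phosphodiesterase (Enpp) genes Enpp1 to Enpp6 were compared between E18.5 fetal and adult basal mammary cells of the mouse. The 6 genes were represented by 7 probes, which were found by their transcript accessions among 55681 probes other than controls. Of these 55681 probes, 27235 matched a RefSeq gene, and they covered 20660 genes. The family was picked from measured values of this same fetal and adult basal comparison, so its differences are given as a description and support nothing on their own. Probes of 5 members (Enpp1 to Enpp5) passed the filter on low signal, and both Enpp6 probes did not.

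Both populations came from female C57Bl6J mice, with 3 biological replicates each and 1 Agilent SurePrint G3 Mouse GE array (single color, Cy3) per replicate. The fetal cells were taken from E18.5 glands, digested briefly and sorted as EpCAM++CD49f+ cells. The adult cells were taken from mice of 8 to 12 wk, digested overnight and sorted as BP-1-EpCAM+CD49f+ cells. Cells carrying CD31, CD45 or Ter119 were removed from both, and how many animals were pooled for each replicate is not given in the sources used here. The BP-1 gate was applied to the adult cells and not to the fetal cells, so developmental stage, gate and digestion time cannot be told apart. The share of probes well above background ran from 76.4% to 83.3% over the 6 arrays.

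Enpp proteins are enzymes of the cell surface or the extracellular fluid that cleave phosphodiester or pyrophosphate bonds. Enpp1, Enpp3 and Enpp4 act on nucleotides, whereas Enpp2 (autotaxin) and Enpp6 act on phospholipids or their choline-containing products, and Enpp5 is a less studied membrane protein of the same family. In epithelia, these enzymes are known for setting the local supply of extracellular ATP, adenosine, pyrophosphate and lysophosphatidic acid.

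Enpp1 and Enpp3 lie next to each other on chromosome 10, and Enpp5 and Enpp4 next to each other on chromosome 17. The RefSeq promoter table (GRCm38.p6) held 4 of the 6 members, namely Enpp1, Enpp3, Enpp4 and Enpp6. The 250 bases before the start site of Enpp3, Enpp1 and Enpp4 are shown 5′ to 3′ because Enpp3 had the largest difference of the family, Enpp1 is its chromosomal neighbour with a difference of the opposite sign, and Enpp4 is a nucleotide-cleaving member on another chromosome. All 3 genes are on the minus strand, at chr10:24836196-24836445, chr10:24712160-24712409 and chr17:44105810-44106059, and CpG dinucleotides are in capitals.
Enpp3: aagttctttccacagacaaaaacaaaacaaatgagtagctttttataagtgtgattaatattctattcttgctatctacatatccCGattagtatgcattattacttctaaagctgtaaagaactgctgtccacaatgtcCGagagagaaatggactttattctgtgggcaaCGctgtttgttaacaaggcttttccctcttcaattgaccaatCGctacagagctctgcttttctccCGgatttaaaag
Enpp1: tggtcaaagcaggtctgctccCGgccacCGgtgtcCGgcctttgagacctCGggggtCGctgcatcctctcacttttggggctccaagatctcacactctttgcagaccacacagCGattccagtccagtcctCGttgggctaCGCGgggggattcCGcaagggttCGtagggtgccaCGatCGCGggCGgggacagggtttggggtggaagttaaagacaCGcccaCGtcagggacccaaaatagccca
Enpp4: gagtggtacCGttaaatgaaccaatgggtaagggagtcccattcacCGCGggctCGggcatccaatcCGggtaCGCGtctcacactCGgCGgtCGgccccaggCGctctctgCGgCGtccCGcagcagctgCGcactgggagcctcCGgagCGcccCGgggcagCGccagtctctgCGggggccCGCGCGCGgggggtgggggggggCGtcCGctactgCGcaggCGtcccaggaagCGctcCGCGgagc
The Enpp3 stretch held 5 CpG dinucleotides, that of Enpp1 held 17 and that of Enpp4 held 31. The whole 300-base window adds 50 bases after the start site. In it, Enpp3 had a GC content of 40.67% and 5 CpG, Enpp1 had 61.67% and 22 CpG, and Enpp4 had 73.67% and 41 CpG. Enpp6, whose sequence is not shown, had 40.33% and 4 CpG, near the values of Enpp3. The median of 32851 promoters was 52.67% GC and 7 CpG, and 38.0% of promoters had fewer CpG than Enpp3, 76.9% fewer than Enpp1 and 96.5% fewer than Enpp4. The letters CCAAT, searched on both strands, occurred 1 time in the Enpp3 window and 2 times in that of Enpp4, and were not in the window of Enpp1 (37.4% of all promoters held them). The letters GGGCGG were found 1 time each in the windows of Enpp1 and Enpp4 and not in that of Enpp3 (35.7% of all promoters). TATAAA occurred 1 time in the Enpp3 window and not in the windows of Enpp1 and Enpp4 (13.6% of all promoters). AGGAAG occurred 1 time each in the windows of Enpp1 and Enpp4 and not in that of Enpp3 (35.4% of all promoters). None of these motifs is contained in another, and a match describes the letters only.

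Across the family, 2 members rose in fetal cells (Enpp3 and Enpp5), none fell, and 3 (Enpp1, Enpp2 and Enpp4) passed the low-signal filter without reaching the threshold. Enpp3 and Enpp5 lay below the filter boundary (5.95 on the log2 scale) in adult cells, with means of 4.74 and 5.49. Both passed it only through the fetal cells, so neither could have been called lower there. A call needed a difference of at least 2-fold and, in limma's moderated test, an adjusted p (Holm) no higher than 0.05. Over all 20448 probes tested, 11.1% were called, 5.92% as higher in fetal cells and 5.18% as higher in adult basal cells. Because the family was chosen on this contrast, nothing is read from its count against those shares. The median difference of the 5 members was 1.82 on the log2 scale, where the median of all tested probes was -0.03. In bulk RNA of sorted cells, fewer cells with a transcript and less of it in each cell cannot be told apart, and this holds for every value below. Signals are log2 of the quantile-normalized processed intensity, differences are fetal minus adult basal, and levels of different probes are not compared with each other.

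**Figure D1:**
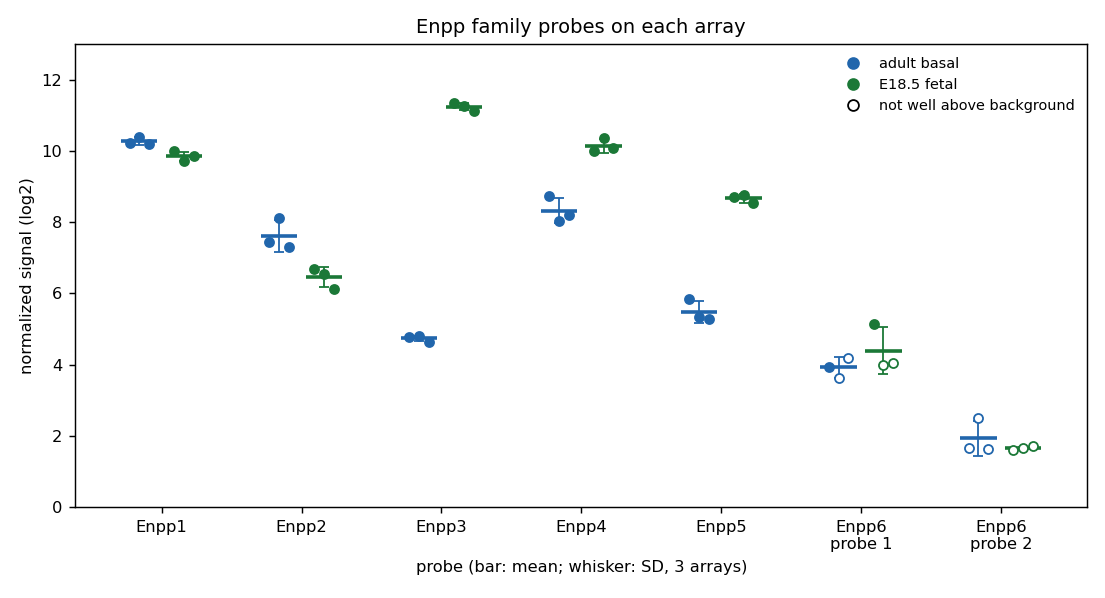
Normalized log2 signal of the 7 Enpp probes on each of the 3 adult basal (blue) and 3 E18.5 fetal (green) arrays; thick bars are means, whiskers SD (n = 3), and open points are spots not well above background. The groups do not overlap for Enpp1 to Enpp5, as was so for 69.0% of all tested probes. Enpp3 is near 4.74 in adult and 11.24 in fetal cells, and both Enpp6 probes have overlapping groups.

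Enpp3, known as CD203c, is a surface enzyme that removes pyrophosphate or phosphate groups from extracellular nucleotides, and is used as an activation marker of basophils and mast cells. Its log2 signal was 4.77, 4.80 and 4.64 in the 3 adult basal arrays and 11.34, 11.25 and 11.13 in the 3 fetal arrays. All fetal arrays were far above all adult arrays, and the spread within either group was small beside the gap. The means were 4.74 ± 0.08 (SD, n = 3) in adult and 11.24 ± 0.10 (SD, n = 3) in fetal cells, so that fetal cells were 6.50 log2 units higher (standard error 0.11), or 90.7-fold. By size of difference toward fetal cells the probe stood at rank 45 of 20448. Before normalization, the processed intensity was 26.7, 23.8 and 22.3 in adult cells and 2825, 2901 and 2525 in fetal cells. All 6 spots were well above background, but the adult spots were dim, so the fold depended on how background was treated. It was 28.8-fold with the normexp correction, 56.9-fold with 16 added before log2 and 102-fold in the deposited normalized values, with the difference on the log2 scale 4.85, 5.83 and 6.67.

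Because Enpp3 is known from mast cells and basophils, markers of those cells are given beside it. Of 6 markers, Ms4a2 and Fcer1a, subunits of the IgE receptor, had no array well above background, and no marker was called. The summed linear signal of the list was 2850, 2966 and 3310 in adult cells and 2617, 2777 and 2675 in fetal cells, with Tpsb2, a tryptase, making up 88.7% of it. Cpa3, a mast cell carboxypeptidase, was at 3.95, 3.87 and 3.88 in adult cells, well above background on 1 array, and at 5.90, 5.92 and 8.54 in fetal cells. The mast cell proteases Cma1 and Mcpt4 also had higher means in fetal cells, 5.34 against 4.43 and 7.61 against 7.23, with overlapping groups. All 3 were highest on the third fetal array. Tpsb2 was lower in fetal cells, at 11.11 against 11.47. Cma1 was below the low-signal filter and not tested, and Cpa3, Mcpt4 and Tpsb2 did not pass the threshold. Hematopoietic cells carrying CD45 were sorted out of both populations. The part of mast cells or basophils in the Enpp3 difference was not tested.

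Enpp5, a type I membrane member of the family, was the other gene that rose in fetal cells. Its log2 signal was 5.85, 5.35 and 5.28 on the adult basal arrays and 8.70, 8.78 and 8.53 on the fetal arrays. The fetal arrays again stood above all adult arrays, and among the adult arrays the first was highest. The means were 5.49 ± 0.31 (SD, n = 3) and 8.67 ± 0.13 (SD, n = 3), a difference of 3.18 (standard error 0.17), or 9.03-fold. Before normalization, the processed intensity was 57.0, 34.1 and 35.6 in adult cells and 468, 510 and 395 in fetal cells. The adult spots were dim here too, and the fold depended on how background was treated. With the normexp correction the difference fell to 2.12 (4.33-fold). Omitting fetal replicate 1 or fetal replicate 2 ended the call of Enpp5, with differences of 3.16 and 3.12 and Holm-adjusted p of 0.096 and 0.075 in limma's test.

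Enpp4, which hydrolyses diadenosine polyphosphates, had log2 signals of 8.73, 8.04 and 8.21 in adult basal cells and 9.99, 10.37 and 10.08 in fetal cells. The groups did not overlap. The means were 8.32 ± 0.36 (SD, n = 3) and 10.15 ± 0.20 (SD, n = 3), a difference of 1.82 (standard error 0.20), or 3.53-fold, which did not pass the Holm threshold. Enpp4 passed with Benjamini-Hochberg adjustment at the same 2-fold limit, under which 30.0% of all tested probes were called.

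Enpp1, which cleaves ATP to AMP and pyrophosphate and so supplies a natural inhibitor of mineralization, gave 10.22, 10.40 and 10.19 in adult basal cells and 9.99, 9.73 and 9.84 in fetal cells. All adult arrays were above all fetal arrays by a small margin. The means were 10.27 ± 0.11 (SD, n = 3) and 9.85 ± 0.13 (SD, n = 3), a difference of -0.42 (standard error 0.12) that did not reach 2-fold or the Holm threshold. The processed intensities before normalization overlapped, at 1204, 1022 and 1062 in adult cells and 1120, 994 and 1010 in fetal cells.

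Enpp2, a secreted lysophospholipase D that makes lysophosphatidic acid, gave 7.43, 8.12 and 7.29 in adult basal cells and 6.69, 6.56 and 6.14 in fetal cells. The adult arrays were higher without overlap, with adult replicate 2 highest. The means were 7.62 ± 0.44 (SD, n = 3) and 6.46 ± 0.29 (SD, n = 3), a difference of -1.15 (standard error 0.24) that did not pass the Holm threshold. Enpp2 also passed with Benjamini-Hochberg adjustment at the 2-fold limit. Groups that do not overlap were common, since 69.0% of all tested probes had none of their fetal arrays within the adult range.

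Enpp6, a choline-specific glycerophosphodiesterase, was measured by 2 probes. The first gave 3.94, 3.63 and 4.20 in adult basal cells and 5.16, 3.99 and 4.04 in fetal cells, and its spot was well above background on 1 adult and 1 fetal array. The second was at or below 2.50 in every array and none of the arrays had it well above background. The groups overlapped for both probes, neither passed the low-signal filter, and no fold is given. No probe matched Enpp7, another family member.

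**Figure D2:**
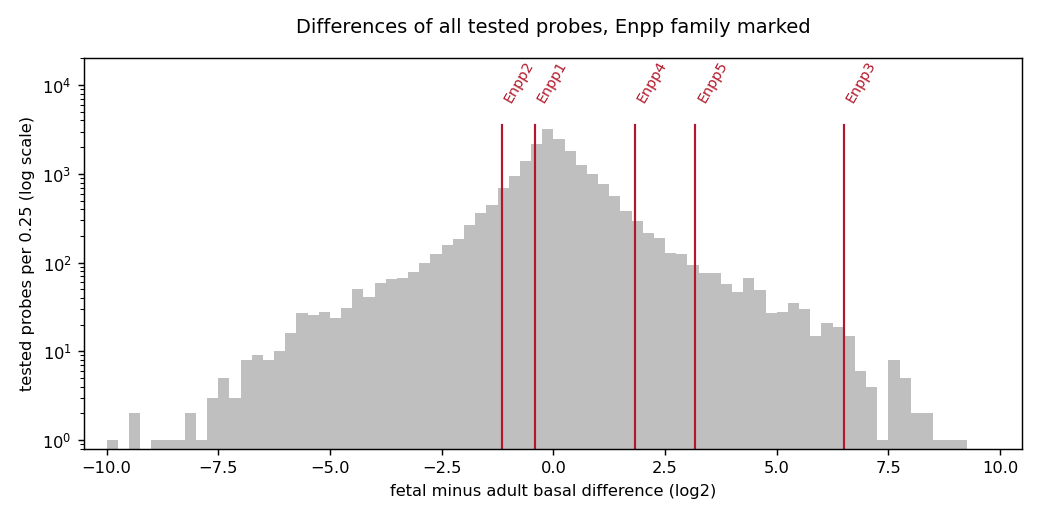
Number of tested probes (log scale) by fetal minus adult basal difference in log2, in bins of 0.25, with the 5 Enpp members that passed the filter marked. Enpp3 lies in the right tail at 6.50 and Enpp1 and Enpp2 lie left of 0 at -0.42 and -1.15.

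Arrays of both populations lay on both slides, so each difference was also taken within a slide. On slide 1 (1 fetal and 2 adult arrays) and slide 2 (2 fetal and 1 adult array) it was 6.63 and 6.39 for Enpp3, 3.14 and 3.30 for Enpp5, and 1.52 and 2.19 for Enpp4. The signs did not change for Enpp1 (-0.22 and -0.62) or Enpp2 (-0.68 and -1.77), and both differences were larger in size on slide 2. In the plot of differences by setting, each member has 1 sign under every setting shown.

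**Figure D3:**
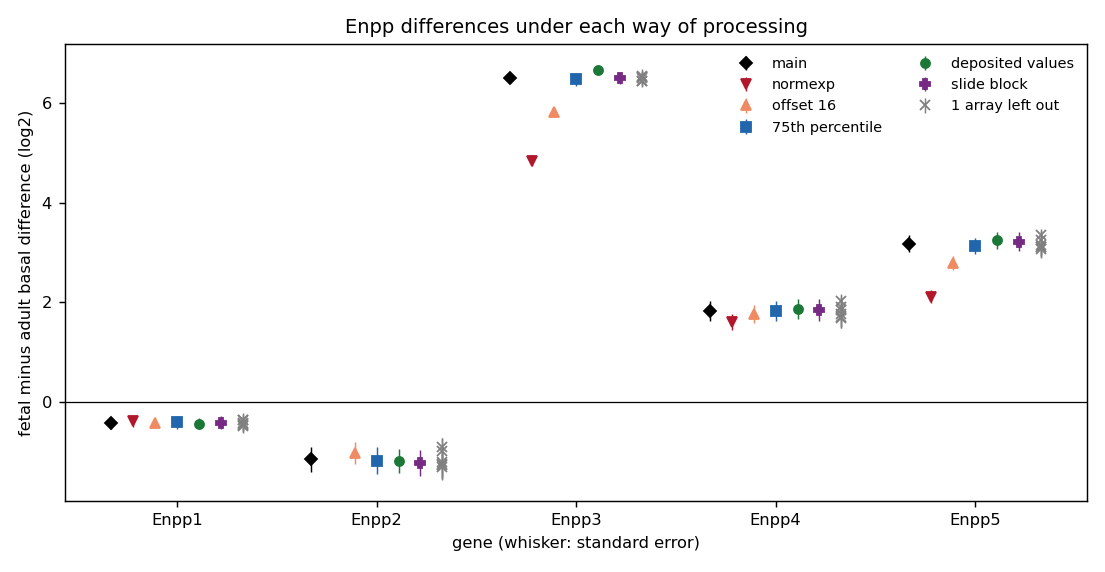
Fetal minus adult basal difference (log2; whiskers are standard errors) of 5 Enpp members in the reported fit and under 5 other ways of processing, and with each array left out. Enpp3 falls from 6.50 to 4.85 and Enpp5 from 3.18 to 2.12 with the normexp correction, and the sign of each member is the same throughout; Enpp2 has no normexp value.

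The genes most like Enpp3 and Enpp5 over the 6 arrays, by the root mean square difference of mean-centred log2 values among 15712 genes, were found by a fixed rule. For Enpp3 they were Ttyh1 (0.18), Dtl (0.19), Snorc (0.19), Dcpp3 (0.19) and Kcnn4 (0.20), with differences from 6.21 for Dcpp3 to 6.55 for Dtl. For Enpp5 they were Lratd1 (0.08), Foxc1 (0.10), Slc5a7 (0.10), 4931406C07Rik (0.11) and Rasl10a (0.13). Likeness over 6 arrays describes a shared size and spread only.

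The genes next to the members on the chromosomes had differences of both signs. On chromosome 10 the order Moxd1, Ccn2, Enpp1, Enpp3 and Med23 gave -2.87 (called), -2.92 (called), -0.42, 6.50 (called) and 0.69 on the log2 scale. Moxd1 and Ccn2 fell in fetal cells, and Med23, a Mediator subunit, did not pass the threshold. On chromosome 17, Cyp39a1, an oxysterol hydroxylase, rose in fetal cells by 2.85 (Holm-adjusted p = 0.0017 in limma's test), as Enpp5 did, while Rcan2, which lies between them, was below the low-signal filter. On the other side of Enpp4, Clic5 was below the filter and Runx2 was at -0.37. Around Enpp2 on chromosome 15, Mal2 and Dscc1 rose by 5.12 and 5.07 and Taf2 was at 0.97, whereas Enpp2 itself was at -1.15. Around Enpp6 on chromosome 8, Irf2 (-0.65), Stox2 (0.02) and Trappc11 (0.01) were tested and did not pass the threshold.

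**Figure D4:**
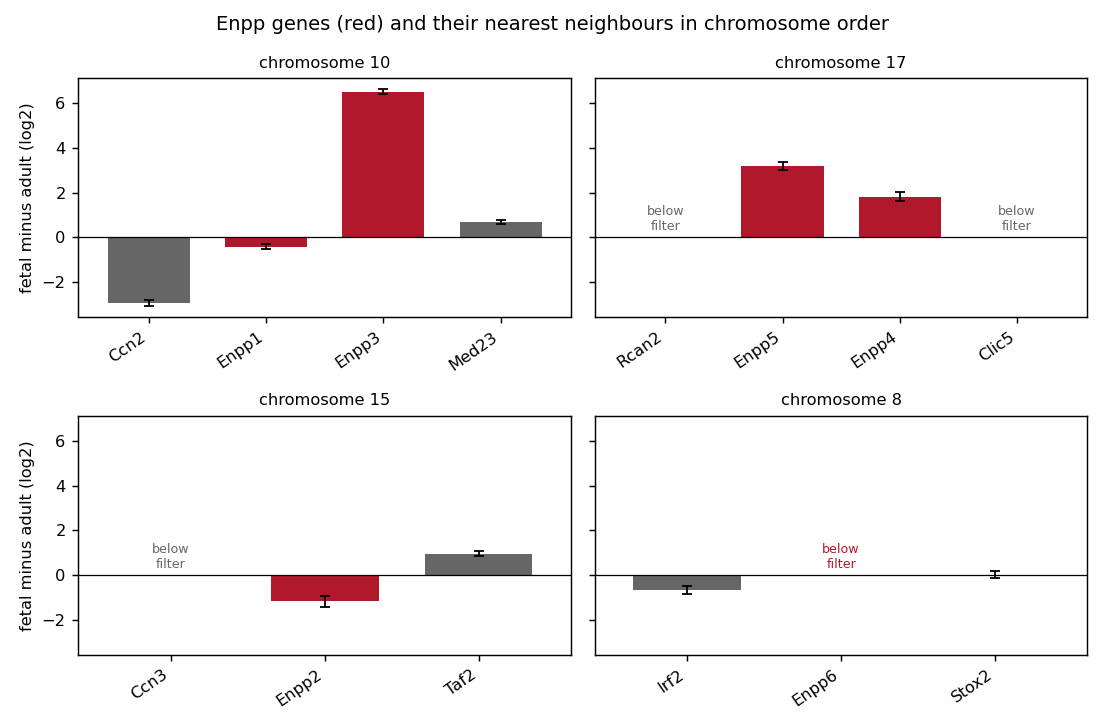
Fetal minus adult basal difference (log2; bars are fitted values, whiskers standard errors) of the Enpp genes (red) and the nearest protein-coding neighbour on each side (grey) in chromosome order, with genes below the low-signal filter marked in words. Enpp1 at -0.42 and Enpp3 at 6.50 are next to each other on chromosome 10.

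Genes that act on the same substrates and products are described by 5 lists of 66 genes, of which 60 had a main probe (the brightest over the 6 arrays) that passed the filter. Over all lists 1 gene rose in fetal cells and 9 fell, that is 1.67% and 15.0% of the 60, beside 5.92% and 5.18% of all tested probes. For extracellular nucleotides and adenosine, 5 of 23 genes fell and none rose, with a median difference of -0.79. Entpd1 (CD39), which converts ATP and ADP to AMP, was at 9.72, 9.88 and 10.04 in adult basal cells, whereas none of the fetal arrays had it well above background. Its signal was at least 64.9-fold higher in adult cells (Holm-adjusted p = 3.9e-05 in limma's test), where the fetal bound is the mean over arrays of the higher of the probe's own value and the lowest signal well above background. The bound depends on how background is treated, since the fitted difference on the log2 scale was -3.84 with the normexp correction and -5.42 with 16 added before log2, both smaller in size than the bound.

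Nt5e (CD73), which turns AMP, a product of Enpp1 and Enpp3, into adenosine, was at 11.87, 12.17 and 12.22 in adult basal cells and 7.38, 7.73 and 7.35 in fetal cells. The groups were far apart, with a difference of -4.60 (standard error 0.15) and a Holm-adjusted p of 1.5e-04 from limma. The other genes of the list that fell were the ATP-gated channel P2rx7 (-2.77), the adenosine receptor Adora1 (-2.27) and Entpd2 (-1.77), an ectonucleotidase that prefers ATP. Their Holm-adjusted p values in limma's test were 0.025, 0.014 and 0.0090, and the calls were lost under 9, 8 and 7 of 17 alternatives, among them the omission of any 1 fetal array. A dimmer P2rx7 probe was called too, at -2.98, and the third was not, at -1.70. Entpd8 had the smallest difference, -0.05. Other genes of the list reached 2-fold without passing the Holm threshold. The nucleoside transporter Slc29a1 was at 1.67, and Bst1, P2ry6, P2rx4 and P2ry1 were at -5.56, -1.63, -1.39 and -1.06. Bst1 was well above background on 1 fetal array only, and its dimmer probe was at -1.75.

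For lysophosphatidic acid, the product of Enpp2, 2 of 10 genes fell, none rose, and the median was 0.40. The 2 genes were Plpp3 (-4.40) and Plpp1 (-2.34), lipid phosphate phosphatases that dephosphorylate lysophosphatidic acid at the cell surface. Their Holm-adjusted p from limma was 4.0e-05 and 0.045, and the call of Plpp1 was lost under 11 of 17 alternatives. Plpp2, of the same enzyme group, had the opposite sign, at 1.28 with groups that did not overlap. It did not pass the threshold (limma, Holm-adjusted p = 0.446) but was called under 2 of 17 alternatives. Among its receptors, Lpar3 was at 5.16, 3.79 and 3.31 in adult basal cells, well above background on 1 array, and at 9.48, 9.21 and 9.70 in fetal cells. All fetal arrays were above all adult arrays, but the size of the difference rests on adult values mostly not well above background. The fitted difference was 5.38 and did not pass (Holm-adjusted p = 0.077 in limma's test). With the normexp correction it was 3.33, and Lpar3 passed under 5 of 17 alternatives, that correction and the omission of adult replicate 1 among them. Pla1a, of the same list, was lower in fetal cells, at -3.69 with groups that did not overlap. Pla1a did not pass the threshold (limma, Holm-adjusted p = 0.25) but was called under 2 of 17 alternatives. The receptors Lpar4 and Lpar6 were at 2.12 and 1.00 without passing the threshold, and Lpar1 had the smallest difference, 0.13.

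For pyrophosphate and phosphate, 1 of 6 genes fell, none rose, and the median was -1.05. That gene was Ank, a membrane protein that controls the export of pyrophosphate and ATP (-2.47, Holm-adjusted p = 0.0010 in limma's test). Alpl, the alkaline phosphatase that breaks pyrophosphate down, was at -2.91 without passing (Holm-adjusted p = 0.41), with adult arrays from 11.61 to 12.89 and fetal arrays from 9.18 to 9.59. Phospho1 had the smallest difference, -0.17. For choline phospholipids, Gdpd1, a glycerophosphodiesterase, rose by 2.92 (Holm-adjusted p = 0.0064 in limma's test, lost without any 1 fetal array), and none of the 15 fell. The main probe of Slc44a1 was nearest to 0 at -0.06, but its probes disagreed, with the others at -0.63 and 0.82 and not called. For cyclic GMP-AMP, a substrate of Enpp1, 1 of 6 genes fell, the volume-regulated channel subunit Lrrc8a (-2.83, Holm-adjusted p = 4.0e-04), while Cgas, Sting1, Slc19a1, Tbk1 and Irf3 were between -0.66 and 0.08.

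**Figure D5:**
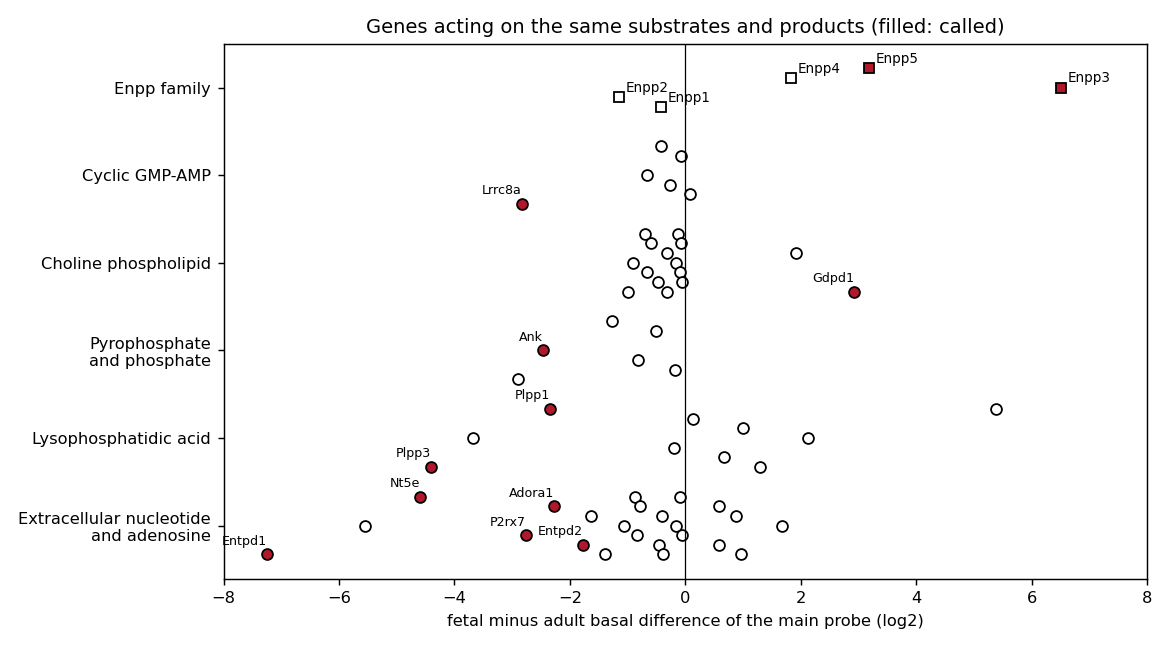
Fetal minus adult basal difference (log2) of main probes that passed the filter, by list, with called genes filled and named; squares are the Enpp members. Called genes of the 5 lists lie left of 0, from -7.24 for Entpd1 (a fitted value, given as a bound in the text) to -1.77 for Entpd2, except Gdpd1 at 2.92.

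Markers of the sorted populations moved with the same contrast, and their part in the Enpp differences was not tested. The summed linear signal of 6 basal markers was 643103, 574715 and 587799 in adult cells and 61881, 54567 and 50303 in fetal cells, with Acta2 the brightest, and 4 of the 6 fell in fetal cells. The sum of 6 luminal markers was 117028, 108618 and 109808 in adult and 174859, 176564 and 137799 in fetal cells, with Krt18 making up 76.6% of it. Elf5 and Kit rose in fetal cells, whereas Krt19 was at -1.22 without passing the threshold. The probes of Prlr disagreed, with the brighter at -0.35 and not called and the dimmer called at 1.85. The probes of Trp63, a basal transcription factor, disagreed too, with the brighter at -0.08 and not called and the other called at -3.06. Fibroblast markers summed to 14404, 16687 and 23649 in adult and 4845, 4923 and 5990 in fetal cells, with Dcn the brightest and the 1 called gene. Leukocyte markers summed to 731, 517 and 2057 in adult and 180, 248 and 258 in fetal cells, with Cd52 the brightest. The sort antigen Epcam rose in fetal cells by 1.88, Itga6 was at 0.01, and the BP-1 gene Enpep had no array well above background. Epidermis markers summed to 709, 732 and 735 in adult and 2087, 1721 and 1613 in fetal cells, with the brighter Krt10 probe called at 1.47 and the dimmer not called at 0.98. Endothelial markers (12651, 13616 and 11016 in adult, 12217, 10738 and 12481 in fetal cells, Kdr 93.9% of the sum), glial markers (18197, 14213 and 15949 against 15919, 16890 and 19206, Sox10 the brightest) and adipocyte markers (1956, 1835 and 2180 against 1026, 934 and 2349, Fabp4 the brightest) had overlapping sums and no called gene. Within the endothelial list, Cdh5 (7.52 in adult and 4.83 in fetal cells) and Emcn (5.98 and 4.19) were lower on every fetal array without passing the threshold.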

How the data were processed

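Single-color arrays measured 3 fetal (E18.5) and 3 adult basal RNA samples, with groups and replicate numbers taken from the labels. The authors deposited spot intensity from Agilent Feature Extraction 11.0.1.1 (background-subtracted, linear, not normalized between arrays), and a table of log2 values that the authors quantile normalized in GeneSpring. The labels and the methods name different labelling kits, and probe sequences were not used here. Each deposited log2 column correlated best with its own array (r from 0.998 to 0.999).

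Control spots and spots marked as outliers (104 to 326 on an array) were left out, log2 processed signals were averaged over spots of a probe, and quantile normalization was run over the 6 arrays. Accessions were matched to RefSeq genes (GRCm38.p6); the array design names another build, so that table served for names and gene order only, and promoters carry their own coordinates. Probes below 5.95 on the log2 scale in both populations, the boundary of the lowest of 3 k-means clusters (100 starts, seed 1), were removed. Differences were fitted with limma 3.58.1 in R 4.3.3 and adjusted by Holm's method over 20448 probes. The fit was tested on simulated data, and no outcome of that test is given here. With 3 arrays against 3, an exact permutation test cannot give a p below 0.10. The number of arrays limits the precision.

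The members, lists and rules were chosen with earlier results of these data known. The genes named were the 6 members, and in each list the called genes and the one with the smallest difference. Lpar3, Lpar4, Lpar6, Plpp2, Pla1a, Slc29a1, Bst1, P2ry6, P2rx4, P2ry1, Alpl and the other cyclic GMP-AMP genes were added after their values were seen. The 2 neighbours on each side of a member, of which 2 are not reported here, and the 5 genes most like each called member were also named. The other alternatives were 75th-percentile scaling, the deposited values, normexp (offset 50, on median intensities), other filters, all probes, Benjamini-Hochberg adjustment, eBayes with trend, an offset of 16, each array left out, and replicate number or slide as a block. Tables and plots were made in Python 3.11.15 with pandas 2.3.3 and matplotlib 3.10.9.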

Additional observations from a re-analysis of the deposited data

How the results depend on the processing

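Of the family, Enpp3 kept its call under all 18 alternatives, with a difference from 4.85 to 6.67, and none of Enpp1 to Enpp5 changed sign under the alternatives run for it. Enpp5 ranged from 2.12 to 3.35 (3.07 to 3.35 with 1 array left out) and lost the threshold without fetal replicate 1 or 2. Enpp1 was between -0.49 and -0.36. With Benjamini-Hochberg adjustment, Enpp2 (-1.15, adjusted p = 0.0046 in limma's test) and Enpp4 (1.82, adjusted p = 1.5e-04) passed, and their differences ranged from -1.32 to -0.90 and from 1.60 to 2.02 over the alternatives run. Enpp2 was below the filter with the normexp correction and has no value there. The family count was 2, and 4 with Benjamini-Hochberg adjustment, and 1 to 2 with 1 array left out.

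Over all probes, 2270 were called, 1182 without the low-signal filter, 6133 with Benjamini-Hochberg adjustment and 952 to 2014 with 1 array left out (952 without fetal replicate 1, 968 without fetal replicate 2, 1072 without fetal replicate 3, 1335 without adult replicate 3 and 1503 without adult replicate 1). The related lists had 10 called genes, 5 without the filter, 24 with Benjamini-Hochberg adjustment and 5 to 8 with 1 array left out (5 without any 1 fetal array). Entpd1, Nt5e, Plpp3, Ank and Lrrc8a kept their calls under all 17 alternatives, Entpd2 lost it under 7, Gdpd1 under 6, Adora1 under 8, P2rx7 under 9 and Plpp1 under 11. The cause of these changes was not tested.

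With replicate number as a block, 1302 probes, 2 members and 5 genes of the lists were called. Arrays of the same number were not shown to be paired, as their deviations correlated at -0.03, 0.09 and 0.05, and not every array correlated best with its own number.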
